A study of Drosophila melanogaster with 9 samples.

Results

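The genes described here are 10 Drosophila cell death genes, chosen by symbol: the death inducers rpr, hid and skl, the caspases Dronc, Drice and Dcp-1, the caspase inhibitor Diap1, the caspase activator Dark, and the cytochrome c genes cyt-c-d and cyt-c-p. All 10 were found among the 17575 genes of the count table, and all 10 passed the filter on low counts that left 14941 genes for testing. Total RNA from dissected testes of males 1 to 3 days old was sequenced after rRNA depletion from 500 ng, with 3 biological replicates of control, U2af38 RNAi and SRPK RNAi. Both knockdowns were driven by bam-GAL4, which is active in late spermatogonia and spermatocytes, and each library pooled testes of many males, so somatic cells and earlier germ cells in the same tissue were not targeted. Control males were either of the parental bam-GAL4 stock or brothers from the knockdown cross, and which of these, and which of the RNAi lines held for each gene, was used for sequencing was not stated. U2af38 is a subunit of the factor that recognises 3′ splice sites, and SRPK is a kinase of splicing proteins. By the study's description, the germ line of U2af38 RNAi males stops at spermatocytes, and that of SRPK RNAi males goes on to the later stages.

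In Drosophila, apoptosis is held in check by Diap1, a ubiquitin ligase that binds caspases. The products of rpr, hid, grim and skl bind Diap1 and release the initiator caspase Dronc, which is activated on a platform built by Dark and then cleaves the effector caspases Drice and Dcp-1. The testis also uses this machinery without killing the cell: in elongated spermatids, which develop in a shared cytoplasm, caspases are activated while a moving set of actin cones strips off the cytoplasm and separates the sperm, a step called individualization. The testis cytochrome c, cyt-c-d, is required for that activation, while cyt-c-p is the form used by other tissues.

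Libraries held 18497748 to 30002574 counted fragments. U2af38 was at 8.28% of its control level in its own knockdown (edgeR adjusted p = 3.22e-10), and SRPK was at 25.1% in its own (edgeR adjusted p = 4.77e-09). In U2af38 RNAi, SRPK was at 231% of control (edgeR adjusted p = 2.92e-09). In SRPK RNAi, U2af38 was at 125% and did not pass the test (edgeR adjusted p = 0.0594). Markers of male germ cells were detected in every genotype, and their summed levels were lowest in U2af38 RNAi. The summed level of 13 spermatid markers was 9191 to 10206 CPM (counted fragments per 1000000 of the library) in control, 2315 to 2387 in U2af38 RNAi and 7237 to 8352 in SRPK RNAi. For 11 spermatocyte markers it was 2098 to 2256, 1355 to 1424 and 2077 to 2238 CPM in the same order, and for 4 spermatogonium markers 161 to 185, 106 to 109 and 180 to 204 CPM. These sums weigh the highest genes most: mean bol went from 1235 CPM in control to 603 in U2af38 RNAi, and bgcn from 140 to 59. By gene, 3 spermatocyte markers were called higher and 5 lower in U2af38 RNAi (median log2 fold change -0.19). Of the spermatogonium markers 2 were called higher and 1 lower (median 0.21). Over all genes tested, 44.7% were called higher and 37.5% lower (median 0.12). The marker medians rest on few genes and move with the scaling of the libraries, so no direction is given for the earlier markers as a set. Accessory gland markers, which should be absent from clean testis, varied between libraries of the same genotype, from 9.94 to 486 CPM in control, 9.42 to 191 in U2af38 RNAi and 15 to 1096 in SRPK RNAi. Muscle markers summed to 397 to 568 CPM in control, 350 to 384 in U2af38 RNAi and 253 to 376 in SRPK RNAi. The part of these differences in tissue composition in the results below was not tested. All CPM values were scaled by the trimmed mean of M-values (TMM), and each edgeR adjusted p is that of the quasi-likelihood test, adjusted by the Benjamini-Hochberg method over the 14941 genes. A gene was called changed when this value was below 0.05.

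In control testes the 10 genes spanned a wide range of levels, compared here as CPM per kilobase of exon. The cytochrome c gene cyt-c-d stood at 899 ± 37.9 (SD, n = 3), followed by cyt-c-p at 89.2 ± 10 and Diap1 at 64.1 ± 0.988. Dronc was at 15.1 ± 1.21, Dark at 11.7 ± 0.687 and hid at 8.47 ± 0.607, and none of the ranges of these 6 genes overlapped. Dcp-1 at 4.31 ± 0.388 and Drice at 4.05 ± 0.331 could not be ordered, because their ranges of 4.06 to 4.76 and 3.80 to 4.42 overlapped. Next came rpr at 2.19 ± 0.547, and skl was close to absent, with 0, 0 and 1 fragments in the 3 control libraries. Diap1 was present at a higher level per kilobase than each of the caspases and each death inducer, in all 3 control libraries.

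The first question was how these genes respond when U2af38, a general splicing factor, is depleted from spermatocytes. The death inducers rpr and hid, the inhibitor Diap1 and cyt-c-d fell, the caspases Dronc, Drice and Dcp-1 and the death inducer skl rose, and Dark and cyt-c-p did not pass the test. Of the 10 genes 8 were called, 4 higher and 4 lower, against a background of 82.2% of all genes tested, 44.7% higher and 37.5% lower. The 8 include skl, which passed the filter on low counts only through its U2af38 RNAi libraries. Groups did not overlap for 8 of the 10 genes, against 84.7% of all genes tested. The median log2 fold change was -0.09 for the 10 genes and 0.12 for all genes tested. With a minimum absolute log2 fold change of 1, 6 of the 10 were called, against 48.9% of all genes tested. Because the testis is a mixed tissue, fewer cells of a type and less RNA per cell cannot be told apart in these values.

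**Figure D1:**
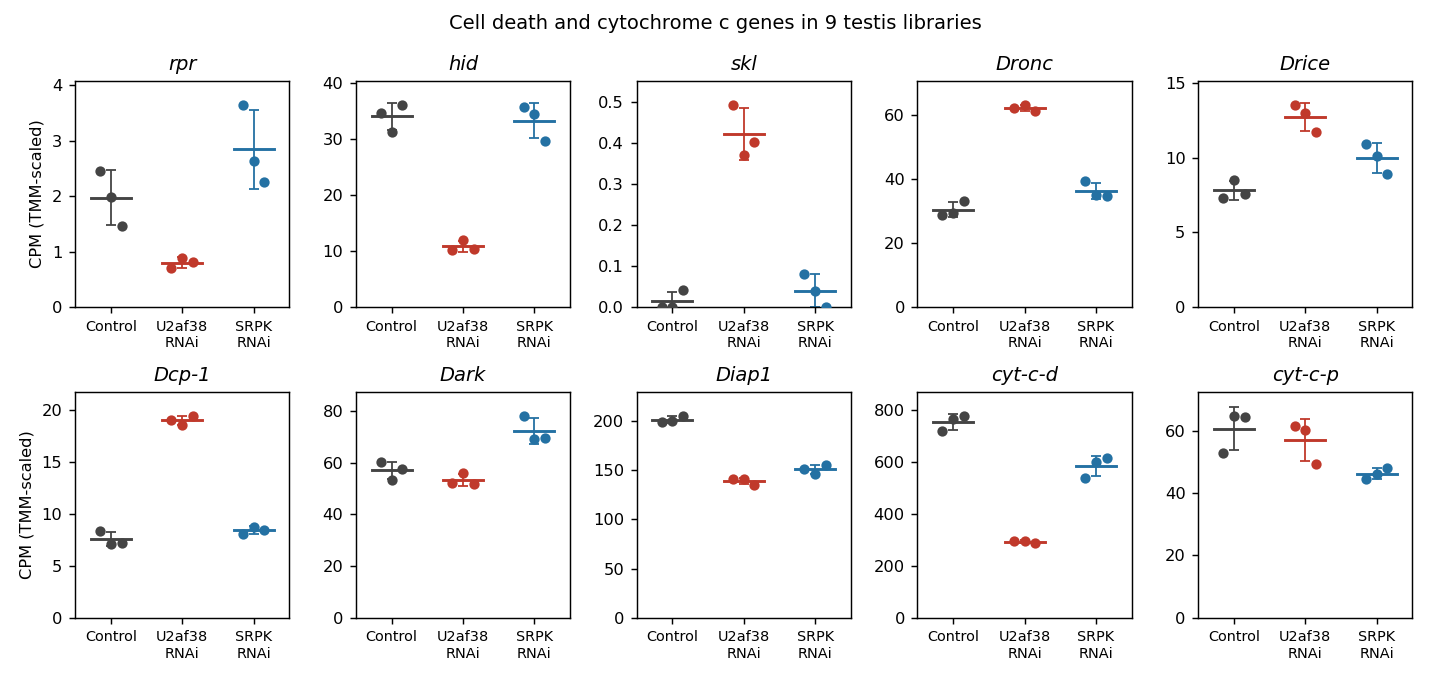
Level of each gene in the 9 libraries, in TMM-scaled CPM (vertical axis from 0, its own scale in each panel), for control (grey), U2af38 RNAi (red) and SRPK RNAi (blue). Points are libraries, horizontal lines are group means and error bars are SD (n = 3). The U2af38 RNAi libraries lie apart from both other groups for rpr, hid, skl, Dronc, Drice, Dcp-1, Diap1 and cyt-c-d, while for Dark and cyt-c-p they overlap the control libraries.

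The death inducers did not move together. The gene hid, which has 2 spliced isoforms with a longest intron of 11237 bases, stood at 34.7, 31.3 and 36.0 CPM in control libraries and at 10.2, 11.9 and 10.4 CPM in U2af38 RNAi. The 3 knockdown libraries lay close together at about 31.8% of the control level, a log2 fold change of -1.65 (SE 0.10, edgeR adjusted p = 6.16e-09). The small intronless gene rpr was at 2.46, 1.99 and 1.47 CPM in control testes and at 0.698, 0.890 and 0.806 CPM in U2af38 RNAi. Its groups did not overlap either, and its log2 fold change was -1.29 (SE 0.29, edgeR adjusted p = 0.00113), although it rested on 17 to 49 fragments per library and was no longer called when libraries were scaled by total count (-0.66, edgeR adjusted p = 0.0573).

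In contrast, skl, also intronless, went from near absence to a low but repeated signal. It had 0, 0 and 1 fragments in control, and 12, 10 and 10 in U2af38 RNAi. It passed the filter on low counts only through its U2af38 RNAi libraries, so its call is not independent of that filter. Every knockdown library was above every control library, and the ratio of the summed, scaled counts was 26.1, with an exact 95% interval of 4.36 to 1062 that covers counting error only (edgeR adjusted p = 0.000342). Even so, skl reached only 0.371 to 0.492 CPM, below rpr in the same libraries. Their neighbour grim, the remaining inducer of the family, had 3, 3 and 0 fragments in control and 10, 3 and 2 in U2af38 RNAi and was too low to be tested. Of its exonic bases 31.8% are shared with lncRNA:CR45975 on the same strand, and fragments there were not assigned. In the deposited dm6 coordinates hid (3L, 18167745 to 18185641), grim (3L, 18302719 to 18304417), rpr (3L, 18397535 to 18398435) and skl (3L, 18438561 to 18439942) lie in that order on the same strand, with gaps of 117, 93.1 and 40.1 kb. Neighbours in this order moved in opposite directions, since rpr fell and skl rose.

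The caspases of the core pathway rose. The initiator Dronc (3L, 9968479 to 9971002, 1 intron of 509 bases) was at 28.7, 29.4 and 33.2 CPM in control testes and at 62.3, 63.1 and 61.2 CPM after U2af38 RNAi, with a log2 fold change of 1.03 (SE 0.07, edgeR adjusted p = 5.13e-08). The knockdown libraries differed little among themselves. The effector Dcp-1 (2R, 23551313 to 23553547) rose most of the caspases in the set, from 8.32, 7.10 and 7.19 CPM to 19, 18.5 and 19.4 CPM (log2 fold change 1.33, SE 0.09, edgeR adjusted p = 1.82e-08). The other effector, the intronless gene Drice (3R, 29799658 to 29801584), went from 7.32, 8.52 and 7.56 CPM to 13.5, 13 and 11.7 CPM (log2 fold change 0.71, SE 0.11, edgeR adjusted p = 4.74e-05). None of the 3 caspases overlapped between the groups, but 84.7% of all genes tested did not overlap either. Their log2 fold changes were at percentile 73 (Dronc), 76.9 (Dcp-1) and 67.3 (Drice) of all genes tested. Each stayed higher and called under every alternative run, except that Drice did not reach the minimum absolute log2 fold change of 1. Log2 fold changes over these runs were 0.59 to 1.67 for Dronc, 0.89 to 1.96 for Dcp-1 and 0.27 to 1.35 for Drice. In the knockdown, Dcp-1 at 10.8 ± 0.265 CPM per kilobase overlapped Dark at 10.9 ± 0.474 and was above Drice at 6.61 ± 0.472.

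Dark, which activates Dronc, did not follow it. Its level was 60.1, 53.4 and 57.3 CPM in control and 52.0, 55.9 and 51.8 CPM in U2af38 RNAi. The groups overlapped and the test was not passed (log2 fold change -0.10, 95% interval -0.24 to 0.05, edgeR adjusted p = 0.200), but the sign of this value turned with the scaling, to 0.54 by total count and 0.21 by upper quartile, both called. Scaling by ribosomal protein genes put Dark at -0.53, called lower (edgeR adjusted p = 9.32e-06).

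Diap1, the inhibitor (3L, 16038410 to 16051034, longest intron 10392 bases), was at 199, 200 and 205 CPM in control testes and at 141, 141 and 135 CPM in U2af38 RNAi. The libraries within each group differed little and the groups were well apart, with a log2 fold change of -0.54 (SE 0.04, edgeR adjusted p = 2.27e-07), yet scaling by total count put it at 0.10 (edgeR adjusted p = 0.0671), so the direction of this moderate change depends on the scaling.

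Among the 10 genes the largest absolute change in level was that of cyt-c-d. This gene was at 717, 766 and 776 CPM in control testes and at 296, 296 and 287 CPM in U2af38 RNAi, that is 38.9% of control (log2 fold change -1.36, SE 0.06, edgeR adjusted p = 7.95e-10). It was lower and called under every alternative run, with log2 fold changes of -1.80 to -0.73. Its neighbour cyt-c-p stood at 52.9, 64.8 and 64.6 CPM in control testes and at 61.6, 60.3 and 49.5 CPM in U2af38 RNAi. These groups overlapped, with a log2 fold change of -0.09 (95% interval -0.30 to 0.12, edgeR adjusted p = 0.402) that turned to 0.55 by total count, 0.22 by upper quartile and 0.00 without U2af38 RNAi replicate 3. Scaling by ribosomal protein genes put cyt-c-p at -0.53, called lower (edgeR adjusted p = 0.000154). The fall of cyt-c-d stands beside the fall of spermatid markers, of which 12 of 13 were called lower in U2af38 RNAi and 1 higher. The background was 37.5% lower and 44.7% higher of all genes tested. These markers had a median log2 fold change of -2.62, and none was at or below 3 fragments in every library of a genotype. Their part in the fall of cyt-c-d was not tested.

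The cytochrome c genes lie next to each other on the same strand (cyt-c-d at 2L, 16715891 to 16719635, and cyt-c-p at 2L, 16719932 to 16722644), 296 bases apart, and share no exonic bases. Their ratio within a library does not depend on any scaling between libraries. Per kilobase, cyt-c-d exceeded cyt-c-p 11, 9.62 and 9.78 times in control, 3.91, 3.99 and 4.72 times in U2af38 RNAi, and 9.85, 10.6 and 10.4 times in SRPK RNAi. The U2af38 RNAi libraries were all below the rest, while control and SRPK RNAi overlapped. The testis form thus made up 91.0% ± 0.602 (SD, n = 3) of the summed cytochrome c level in control, 80.7% ± 1.58 in U2af38 RNAi and 91.1% ± 0.294 in SRPK RNAi. The summed level was 989 ± 47.8 CPM per kilobase in control and 434 ± 16.1 in U2af38 RNAi. A two-sided exact permutation test of the ratio gave p = 0.1 for U2af38 RNAi against control, the smallest that 3 libraries against 3 can give, and p = 0.8 for SRPK RNAi against control, where the means were 10.3 and 10.1.

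**Figure D2:**
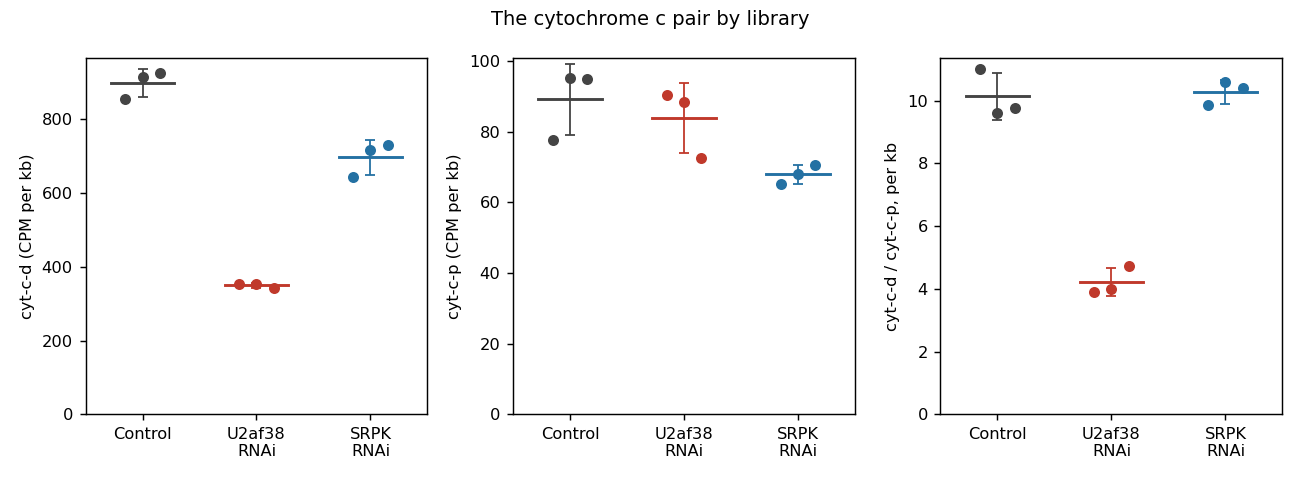
The cytochrome c genes by library: cyt-c-d and cyt-c-p in TMM-scaled CPM per kilobase of exon, and their ratio, all from 0. Points are libraries, lines are group means and error bars are SD (n = 3). The ratio is 3.91 to 4.72 in U2af38 RNAi and 9.62 to 11 in the other genotypes. In SRPK RNAi both genes are lower than in control at a ratio that overlaps it.

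The second question was whether SRPK RNAi, in which spermatids form, affects the same genes. In SRPK RNAi, Dronc, Drice and Dark rose, Diap1, cyt-c-d and cyt-c-p fell, and rpr, hid, skl and Dcp-1 did not pass the test. Thus 6 of 10 were called, 3 higher and 3 lower, against a background of 41.4% of all genes tested, 20.3% higher and 21.1% lower. Groups did not overlap for 6 of the 10, against 50.5% of all genes tested. Without Control replicate 1 or SRPK RNAi replicate 1, 1 gene was called higher in place of 3. With a minimum absolute log2 fold change of 1, 0 of the 10 were called, against 9.18% of all genes tested. Log2 fold changes of these 6 genes ran from -0.42 to 0.36. The median was 0.20 for the 10 genes and 0.01 for all genes tested.

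Diap1 changed most among the called genes. It was at 199, 200 and 205 CPM in control and 151, 146 and 155 CPM in SRPK RNAi, with no overlap and a log2 fold change of -0.42 (SE 0.04, edgeR adjusted p = 2.11e-05). Each of the 19 alternative fits kept this call, with values of -0.50 to -0.31, but it did not reach the minimum absolute log2 fold change of 1. Dark, by contrast, rose from 60.1, 53.4 and 57.3 CPM to 78.0, 69.2 and 69.5 CPM (log2 fold change 0.34, SE 0.07, edgeR adjusted p = 0.00153), called in the same 19 fits and likewise below that minimum. These log2 fold changes were at percentile 77.9 (Dark) and 19.7 (Diap1) of all genes tested. What these RNA levels mean for caspase activity was not tested.

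The caspases changed by smaller steps. Dronc went from 28.7, 29.4 and 33.2 CPM to 39.3, 34.9 and 34.7 CPM (log2 fold change 0.25, SE 0.07, edgeR adjusted p = 0.0167), and the lowest knockdown library lay just above the highest control library. This call was lost without Control replicate 1 (0.21, edgeR adjusted p = 0.0618), Control replicate 2 (0.24, 0.0544) or SRPK RNAi replicate 1 (0.19, 0.0680). Drice went from 7.32, 8.52 and 7.56 CPM to 10.9, 10.1 and 8.88 CPM (log2 fold change 0.36, SE 0.11, edgeR adjusted p = 0.0186), a call lost without Control replicate 1 (0.32, 0.0570), Control replicate 3 (0.34, 0.0546) or SRPK RNAi replicate 1 (0.29, 0.0804). Dcp-1 was at 8.02, 8.76 and 8.43 CPM in SRPK RNAi, overlapping control (log2 fold change 0.16, 95% interval -0.04 to 0.35, edgeR adjusted p = 0.178).

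Both cytochrome c genes fell in SRPK RNAi. The testis gene cyt-c-d was at 538, 600 and 613 CPM against 717, 766 and 776 CPM in control (log2 fold change -0.37, SE 0.06, edgeR adjusted p = 0.000616), and cyt-c-p was at 44.5, 46.3 and 48.0 CPM against 52.9, 64.8 and 64.6 CPM (log2 fold change -0.39, SE 0.10, edgeR adjusted p = 0.00604). Neither overlapped control, and cyt-c-p was called in 18 of 19 alternative fits, the exception being the second sequencing lane alone (-0.25, edgeR adjusted p = 0.0977). Of the 13 spermatid markers 7 were called lower and 1 higher in SRPK RNAi, with a median log2 fold change of -0.26, and all 5 muscle markers were lower, with a median of -0.71. The background was 21.1% lower and 20.3% higher of all genes tested. The part of either marker set in the fall of the cytochrome c genes was not tested.

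Among the death inducers, hid was at 35.7, 34.4 and 29.7 CPM in SRPK RNAi and did not pass the test (log2 fold change -0.03, 95% interval -0.23 to 0.16, edgeR adjusted p = 0.806). For rpr the SRPK RNAi libraries, at 3.64, 2.64 and 2.25 CPM, reached above the control range but overlapped it, and the interval was wide (log2 fold change 0.54, 95% interval -0.03 to 1.10, edgeR adjusted p = 0.116). Only 2, 1 and 0 fragments of skl were counted in SRPK RNAi, against 0, 0 and 1 in control, a ratio of 2.56 with an exact 95% interval of 0.206 to 134, so a difference was not detectable at this depth.

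**Figure D3:**
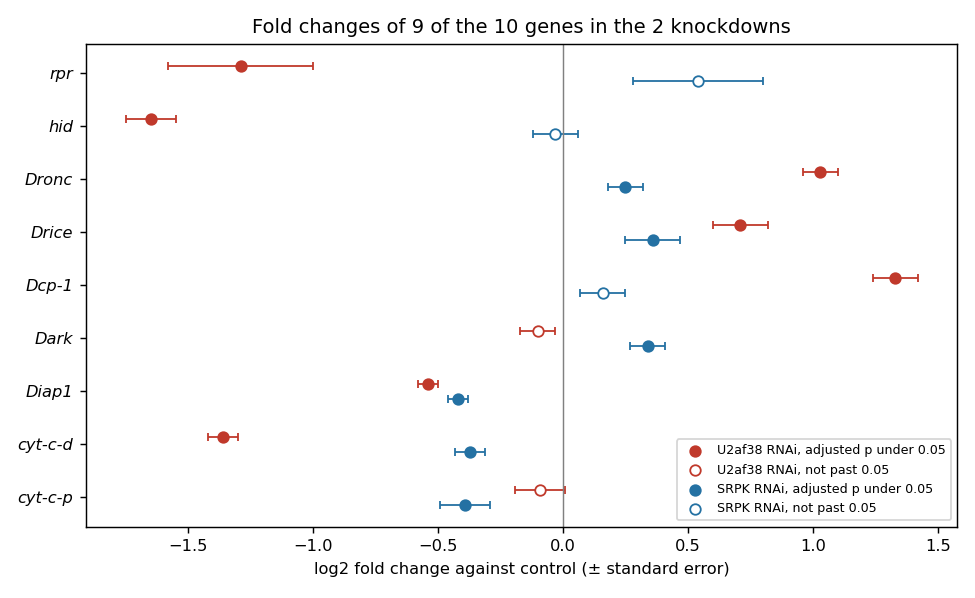
Log2 fold change against control (horizontal axis, ± SE derived from the edgeR F statistic, n = 3 against 3) of 9 of the 10 genes in U2af38 RNAi (red) and SRPK RNAi (blue), with filled points for an adjusted p under 0.05. The gene skl is left out because its control libraries hold a single fragment. In U2af38 RNAi values run from -1.65 for hid to 1.33 for Dcp-1, with Diap1 (-0.54) turning to 0.10 when scaled by total count. In SRPK RNAi all called values lie between -0.42 and 0.36.

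The knockdowns were also compared with each other, which tests directly whether they differ for each gene. All 10 genes were called, 5 higher and 5 lower in U2af38 RNAi than in SRPK RNAi, against a background of 79.9% of all genes tested, 42.3% higher and 37.6% lower, and none of the 10 overlapped between these groups, against 81.8% of all genes tested. With a minimum absolute log2 fold change of 1, 4 of the 10 were called, against 44.4% of all genes tested. The widest gap among genes with more than a few fragments was that of rpr (log2 fold change -1.83, SE 0.28, edgeR adjusted p = 5.85e-05), followed by hid at -1.62 (edgeR adjusted p = 9.03e-09), Dcp-1 at 1.17 (edgeR adjusted p = 6.06e-08) and cyt-c-d at -1.0 (edgeR adjusted p = 1.85e-08). For skl, 32 fragments in U2af38 RNAi stood against 3 in SRPK RNAi, a scaled ratio of 10.2 with an exact 95% interval of 3.18 to 51.9 (edgeR adjusted p = 0.000732). Here too skl was tested only because its U2af38 RNAi libraries passed the filter. Dronc was higher in U2af38 RNAi by 0.78 (edgeR adjusted p = 7.84e-07).

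The remaining differences between the knockdowns were smaller and moved with the scaling. Drice differed by 0.35 (edgeR adjusted p = 0.00741) and cyt-c-p by 0.30 (edgeR adjusted p = 0.0108), and scaling by ribosomal protein genes put them at -0.00 and -0.06. Without U2af38 RNAi replicate 1, cyt-c-p was at 0.24 (edgeR adjusted p = 0.0556). Dark differed by -0.44 (edgeR adjusted p = 5.80e-05), which became 0.08 by total count. Diap1 differed by only -0.11 (edgeR adjusted p = 0.0335), with values of -0.47 to 0.41 over the alternatives, and lost its call without U2af38 RNAi replicate 3 (-0.10, 0.0928) or SRPK RNAi replicate 3 (-0.10, 0.0786).

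**Figure D4:**
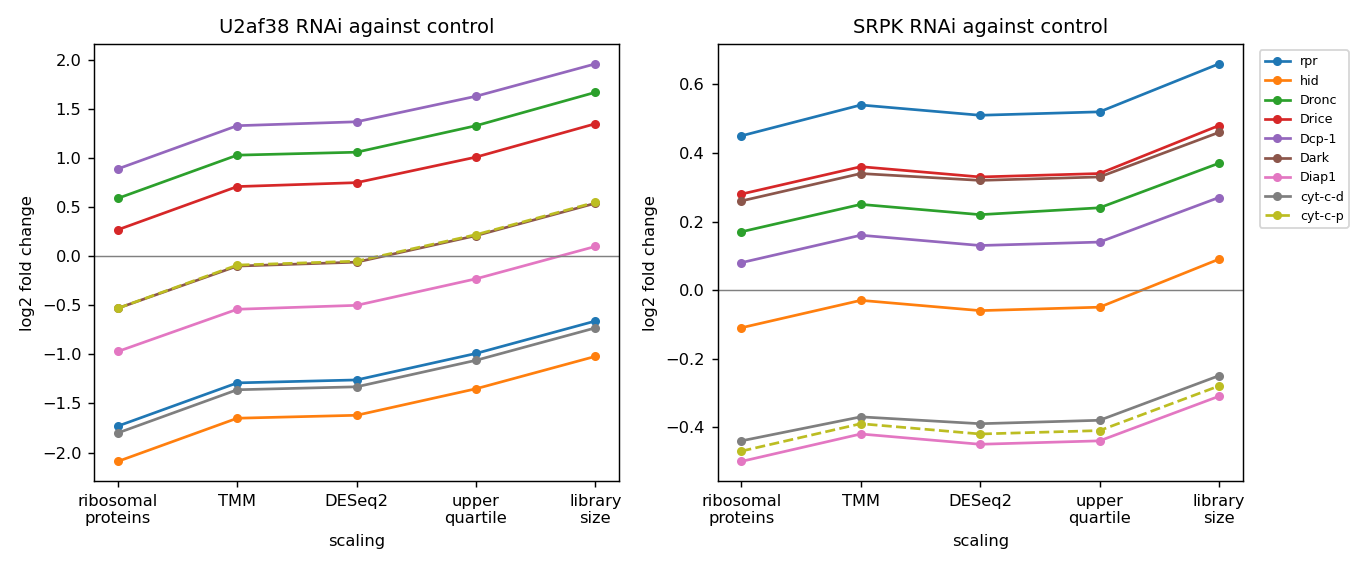
Log2 fold change against control of 9 of the 10 genes (skl left out, 1 fragment in control) under 5 ways of scaling the libraries, with the reported one labelled TMM. In U2af38 RNAi, hid, rpr and cyt-c-d stay below 0 and Dronc, Drice and Dcp-1 above it under all 5, while Dark and cyt-c-p (nearly overlaid) cross 0 under upper quartile and total count and Diap1 under total count. In SRPK RNAi only hid crosses 0, reaching 0.09 by total count.

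Among relatives of these genes, the caspases moved in both directions. In U2af38 RNAi the initiator-type caspase Strica rose like Dronc, from 1.85, 1.42 and 1.76 CPM to 3.41, 4.67 and 3.87 CPM (log2 fold change 1.24, edgeR adjusted p = 0.000252). The effector-type caspase Decay fell, against the direction of Drice and Dcp-1, from 11.2, 9.43 and 10.4 CPM to 1.97, 2.37 and 2.58 CPM (log2 fold change -2.16, edgeR adjusted p = 1.44e-08). Neither gene overlapped between its groups. Damm, another caspase, was lower at -0.73 (edgeR adjusted p = 0.00227), and Dredd, the initiator caspase of innate immune signalling, was lower at -0.66 (edgeR adjusted p = 0.00131), but scaling by total count moved them to -0.09 and -0.03, neither called. Strica stayed higher and Decay lower, both called, under every alternative run.

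Of the other inhibitors, Bruce was lower in U2af38 RNAi, while the fall of Diap2, like that of Diap1, depended on the scaling. Bruce, a giant ubiquitin ligase with an inhibitor repeat, was at 865, 858 and 1058 CPM in control testes and at 506, 515 and 552 CPM in U2af38 RNAi (log2 fold change -0.82, edgeR adjusted p = 1.51e-06). Diap2, a relative of Diap1 that acts in immune signalling, differed by -0.34 (edgeR adjusted p = 3.16e-05) but by 0.30 when scaled by total count. By upper quartile it differed by -0.03 and was not called.

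In SRPK RNAi, Strica was again higher (3.69, 3.45 and 2.43 CPM, log2 fold change 0.92, edgeR adjusted p = 0.00672), and this call was lost with the second lane alone (0.74, edgeR adjusted p = 0.0844) and with a minimum absolute log2 fold change of 1. Damm was lower at -0.61 (edgeR adjusted p = 0.0164), a call lost without Control replicate 3 (-0.55, 0.0612) or SRPK RNAi replicate 3 (-0.55, 0.0543). Decay at -0.33 (edgeR adjusted p = 0.0482) lost its call without each of the 6 compared libraries in turn, and Bruce at 0.24 (edgeR adjusted p = 0.0344) lost it without 4 of them and overlapped control. Diap2 and Dredd did not pass the test (log2 fold changes 0.07 and -0.19).

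A wider list of 34 other cell death genes, which includes these relatives and also covers JNK and TNF signalling, DNA fragmentation and engulfment, gave 33 genes tested. In U2af38 RNAi 28 were called, 13 higher and 15 lower, with a median log2 fold change of -0.13 against 0.12 for all genes tested. The share of 84.8% is close to the 82.2% of all genes. The highest was Traf4, an adaptor of TNF receptor signalling, which went from 2.20, 1.76 and 1.27 CPM to 16.8, 16.6 and 19.4 CPM (log2 fold change 3.35, edgeR adjusted p = 3.25e-08). The lowest was Drep3, which has the domain of DNA fragmentation factors, at 25.8, 27 and 28 CPM in control and 4.76, 5.19 and 5.88 CPM in the knockdown (log2 fold change -2.35, edgeR adjusted p = 7.41e-10). Both groups of values were far apart, and both calls held in every alternative run. Of the exonic bases of Drep3, 23.2% are shared with CG44314 on the same strand, and fragments there were not assigned.

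In SRPK RNAi 14 of the 33 genes were called, 9 higher and 5 lower, with a median of 0.11. The share of 42.4% is close to the 41.4% of all genes, and 8 were left without Control replicate 1, Control replicate 3 or SRPK RNAi replicate 1 and 9 without Control replicate 2. Fadd, the adaptor that recruits Dredd, rose to 9.64, 8.10 and 6.90 CPM from 5.51, 5.45 and 5.88 CPM (log2 fold change 0.55, edgeR adjusted p = 0.00767). DNaseII, a lysosomal nuclease that degrades the DNA of engulfed cells, fell to 1.01, 1.47 and 1.85 CPM from 2.66, 2.16 and 2.61 CPM (log2 fold change -0.78, edgeR adjusted p = 0.0202), but this call was lost without Control replicate 1 (-0.73, 0.0595), Control replicate 3 (-0.73, 0.0638), SRPK RNAi replicate 1 (-0.59, 0.0710) or SRPK RNAi replicate 2 (-0.79, 0.0508).

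Genes that act in individualization moved mostly downward in U2af38 RNAi. Of the 23 matched genes 22 were tested and 22 were called, 17 lower and 5 higher, against a background of 37.5% lower and 44.7% higher, with a median log2 fold change of -1.05 against 0.12 for all genes tested. The list was chosen with earlier results of these data known, so this comparison is descriptive. Total count moved the median of all genes by 0.64, more than the falls of soti (-0.26), eIF3m (-0.46) and chic (-0.49). Ribosomal protein genes moved it by -0.43, and the rises were at most 0.40. These genes were well expressed, with a median level of 440 CPM in control against 12.2 CPM over all genes. The untested gene was Lasp, whose exonic bases all lie in another gene on the same strand, so that its fragments were not assigned. The list shares the gene soti with the spermatid markers, whose summed level fell as given above, and their part in this result was not tested.

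The largest fall was that of jar, myosin VI, which stabilises the actin cones. It was at 1040, 1015 and 1164 CPM in control testes and at 105, 131 and 128 CPM in U2af38 RNAi (log2 fold change -3.15, SE 0.10, edgeR adjusted p = 4.58e-11). Next came Roc1b, the RING subunit of the Cul3 ubiquitin ligase that is required for caspase activation in spermatids, at 71.2, 86.1 and 73.2 CPM in control and 17.2, 16.3 and 17.2 CPM in the knockdown (log2 fold change -2.18, edgeR adjusted p = 6.42e-10). Each knockdown library was far below each control library for both genes. The largest rises were small: Chc, the clathrin heavy chain, differed by 0.40 (edgeR adjusted p = 4.44e-06) and gudu, an Armadillo repeat gene, by 0.28 (edgeR adjusted p = 0.000270), and scaling by ribosomal protein genes turned both below 0, to -0.03 and -0.15.

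In SRPK RNAi, 10 of the 22 individualization genes were called, 9 lower and 1 higher, against a background of 21.1% lower and 20.3% higher, and the median was -0.12. Roc1b was again among the lowest, at 45.7, 54.4 and 58.1 CPM (log2 fold change -0.54, edgeR adjusted p = 0.000684), and ScsbetaA, a subunit of a mitochondrial enzyme that recruits the Cul3 ligase in spermatids, went from 864, 872 and 919 CPM to 570, 646 and 661 CPM (log2 fold change -0.50, edgeR adjusted p = 0.000126). Neither overlapped control. The gene called higher was nes, a lysophospholipid acyltransferase, at 0.15 (edgeR adjusted p = 0.0243), a call lost without Control replicate 1 (0.12, 0.0918), Control replicate 3 (0.15, 0.0544) or SRPK RNAi replicate 2 (0.14, 0.0789). Leaving out Control replicate 3 or SRPK RNAi replicate 2 left 4 of these genes called in place of 10.

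**Figure D5:**
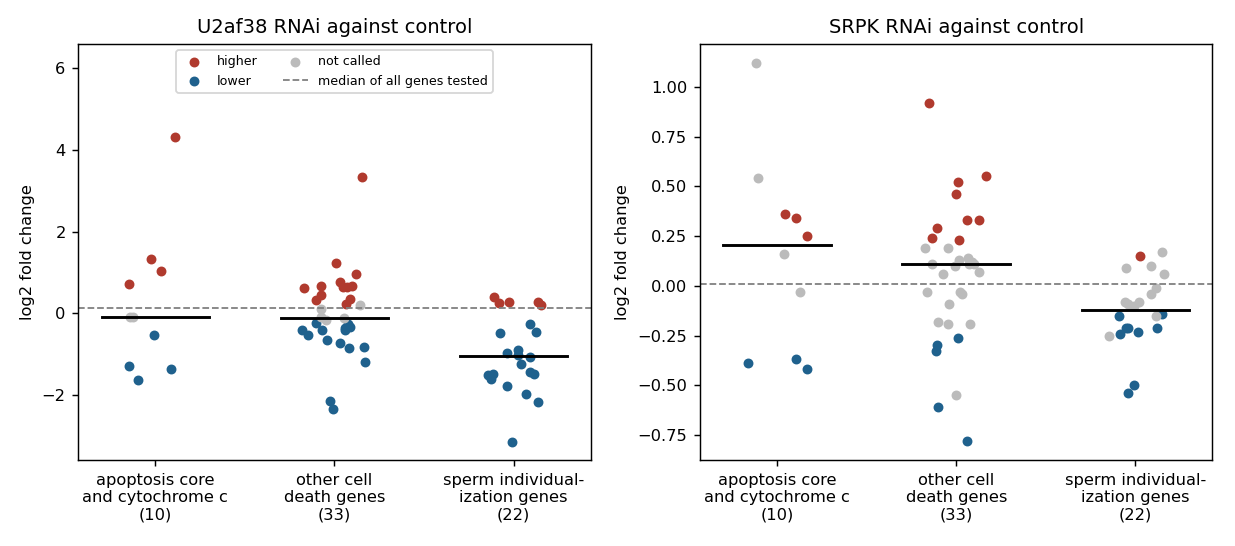
Log2 fold change against control (vertical axis, a different scale in each panel) of the 10 apoptosis core and cytochrome c genes, 33 other cell death genes and 22 sperm individualization genes. Red points were called higher, blue lower and grey not called, black bars are list medians and the dashed line is the median of all 14941 genes tested. The individualization list lies lowest in U2af38 RNAi (median -1.05), while the highest point in both left columns, skl, rests on 1 control fragment. Scaling by total count raises the median of all genes in U2af38 RNAi by 0.64.

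For each of the 10 genes, the gene with the most similar pattern over the 9 libraries was sought among genes whose mean level reached 1 CPM, as the smallest root mean square difference in centred log2 CPM. The closest match of all was Mob2 for Dronc, at 0.0330, followed by CG30487 for cyt-c-d at 0.0370 and rump for Dark at 0.0414. Drice was nearest to qkr58E-2 (0.0441), Diap1 to Sod2 (0.0459), Dcp-1 to babo (0.0477), cyt-c-p to CaMKI (0.0492) and hid to CG4622 (0.0680). The low genes had looser matches, 0.141 for rpr with asRNA:CR44891 and 0.155 for skl with tara. None of the 10 was nearest to another of the 10, but with 1 match sought among so many genes this was likely beforehand. It does not show whether the 10 vary together, and skl was too low to be a match.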

How the data were processed

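The authors aligned paired-end reads to dm6 with STAR 2.7.1a and deposited raw counts of fragments per gene from featureCounts 1.6.2, counted by strand on FlyBase 6.37 genes, with 2 lanes per library in separate columns. Lanes were summed. Fragments shared by overlapping genes on a strand were not assigned, which did not touch the 10 genes. Gene symbols came from Ensembl 115 (BDGP6.54). Genes were filtered with filterByExpr, scaled by TMM and fitted over all 9 libraries with edgeR 4.0.16 (R 4.3.3), without a replicate block. The statistics were tested on simulated counts in which few genes changed, equally up and down. In these data 82.2% of all genes tested were called in U2af38 RNAi, so that test does not cover the scaling used here. The study's methods name DESeq2, which was run here as an alternative (version 1.42.0), beside other filters, scalings, designs, lanes and left-out libraries. Named genes were the 10 members, 7 relatives, the largest 2 called rises and falls of each list (mean at least 1 CPM, no overlap) and the nearest pattern per member. The members and lists were chosen with earlier results of these data known. The gene klhl10 was not analysed here. Counting limits precision for genes at or under 3 fragments. Libraries are biological replicates per the labels. Each edgeR p-value tests a difference between groups against a spread between libraries that was estimated over the 3 genotypes with information from all genes.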

Additional observations from a re-analysis of the deposited data

How the results depend on the processing

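In U2af38 RNAi against control, the median log2 fold change of all genes moved by 0.64 under scaling by total count, 0.30 by upper quartile, 0.18 with a filter of at least 10 counts in every library and -0.43 by ribosomal protein genes, and in SRPK RNAi by 0.12 by total count. Low counts limit skl and grim, and U2af38 RNAi had the shallowest libraries. Where no cause is named, the cause was not tested.

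In U2af38 RNAi against control, 2 of the 10 genes were called lower by total count in place of 4. Requiring a minimum absolute log2 fold change of 1 left 6 of the 10 genes, 5 other cell death genes, 12 individualization genes and 7300 of all genes. Values that changed sign were those of Dark (0.08 with at least 10 counts, 0.54 by total count, 0.21 by upper quartile), cyt-c-p (0.09, 0.55 and 0.22 in the same order, 0.04 with the second lane alone, 0.00 as the highest of its values with a library left out, which start at -0.18), Diap1 (0.10 by total count) and Diap2 (0.30 by total count). By ribosomal protein genes, Chc went to -0.03, gudu to -0.15 and nes to -0.25. The same scaling kept the sign of Dark and cyt-c-p but put both at -0.53, called lower.

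In SRPK RNAi against control, the same minimum left 0 of the 10 genes called, 0 higher and 0 lower, 0 other cell death genes, 0 individualization genes and 1371 of all genes. The second lane alone left 7 other cell death genes called. Leaving out 1 library gave 1 to 3 of the 10 genes called higher, 8 to 12 other cell death genes and 4 to 10 individualization genes. Values that changed sign were those of hid (0.09 by total count, 0.07 with the first lane alone, -0.09 to 0.05 with a library left out), Chc (0.10 by total count, 0.01 with the second lane alone, -0.02 to 0.01 with a library left out) and Diap2 (-0.01 by ribosomal protein genes). Dcp-1 was called by total count only (0.27, edgeR adjusted p = 0.0419).

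In U2af38 RNAi against SRPK RNAi, 3 genes were called lower by total count and by upper quartile, and 3 higher by ribosomal protein genes. The minimum of 1 left 4 of the 10 genes (2 higher and 2 lower), 7 other cell death genes, 10 individualization genes and 6633 of all genes. Values that changed sign were those of Diap1 (0.06 with at least 10 counts, 0.41 by total count, 0.20 by upper quartile, 0.01 with the second lane alone), Dark (0.08 by total count), Drice (-0.00 by ribosomal protein genes) and cyt-c-p (-0.06 by ribosomal protein genes).

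Libraries of the same replicate number showed no steady pairing. Correlations of same-numbered deviations ran from -0.117 to 0.295 for U2af38 RNAi and control and from -0.403 to 0.365 for SRPK RNAi and control. They were all below 0 between the knockdowns. With 3 libraries per group, this check cannot exclude a shared preparation by replicate number. Fits with a block for the replicate number called 8, 6 and 10 of the 10 genes in the 3 comparisons, as without it, and 12213, 6331 and 11881 of all genes.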

Other observations

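Genes for the removal of dying cells did not move as 1 group in U2af38 RNAi, and the choice of genes named here was made after their values were seen. The engulfment receptor drpr was at 166, 172 and 161 CPM in control and 89.2, 97.9 and 87.3 CPM in U2af38 RNAi (log2 fold change -0.86, edgeR adjusted p = 3.41e-08), while ced-6, an adaptor of that receptor, went from 24.5, 21.7 and 22.9 CPM to 42.9, 43.8 and 46.9 CPM (log2 fold change 0.95, edgeR adjusted p = 3.48e-07). Neither overlapped between its groups. The mitochondrial protease HtrA2 fell from 173, 179 and 198 CPM to 75.6, 81.2 and 81.2 CPM (log2 fold change -1.21, edgeR adjusted p = 1.28e-08), the direction of cyt-c-d.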
